A study of Mus musculus with 6 samples.

Results

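The Slc25a genes encode mitochondrial carriers, and 47 of the 52997 gene symbols in the count table belong to them. They were taken as every symbol made of Slc25a and a number, so that family members under other symbols, such as the uncoupling protein genes and Mtch1 and Mtch2, stand apart. Messenger RNA was measured in CD4+ T cells, sorted from the pooled lymph nodes of single mice, with 3 adult mice aged 7 weeks and 3 infant mice (Young in the titles) aged 10 days and 1 library per mouse. All mice were of the strain Foxp3-GFP on C57BL/6, in which regulatory T cells carry a green fluorescent reporter, and both ages therefore share this allele. Each library was made from 1000 sorted cells. The titles call the cells Tconv, the series calls them naive, and the sources used here give neither the sex of the mice nor the markers of the sort.

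Carriers of this family sit mostly in the inner mitochondrial membrane, which is otherwise closed to charged metabolites. Each one typically exchanges a substrate of the matrix for one of the cytosol, such as ATP for ADP or malate for oxoglutarate. They thereby tie ATP export, the supply of carbon and amino acids, iron, and cofactors to the needs of the cell. Naive T cells are known to be small and quiescent and to rely largely on mitochondrial respiration, and they enlarge their mitochondria when stimulated.

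In adult cells 2 carriers were lower than in infant cells and 0 were higher. The ADP/ATP carrier gene Slc25a5 was at 286 ± 17.0 CPM (the counts-per-million level, out of the counts of tested genes and scaled between libraries, mean ± SD) in adult and 394 ± 14.6 in infant libraries (n = 3 each). The amino acid carrier gene Slc25a45 was at 75.1 ± 5.77 CPM in adult and 112 ± 4.94 in infant libraries (n = 3 each). Both differences came to about the same proportion, 72.6% and 66.7% of the infant level in adult cells, and those of the other 37 tested members did not pass. By edgeR's quasi-likelihood test at a Benjamini-Hochberg adjusted p of 0.05, 247 of the 11681 genes tested (2.11%) were higher and 178 (1.52%) were lower in adult cells, beside which 2 of 39 members lower (5.13%) and 0 of 39 higher is a small count that was not tested as a list. At an unadjusted p under 0.05, 5 members were lower and 2 higher, where 8.25% of all genes were lower and 9.02% higher. DESeq2 called 3 members, all lower in adult cells, where it called 2.29% of all genes lower and 3.03% higher. The 2 members that limma-voom called were those of edgeR, where it called 1.55% lower and 2.1% higher. Without adult replicate 2 edgeR again called 2 members, without adult replicate 1 it called 1 (Slc25a20), and without any 1 of the other 4 libraries 0. The count of all genes called also changed between these fits, over the range given with the processing results further below.

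The libraries held 3421253 to 4887371 counts, and 3 counts in a library corresponded to 0.628 to 0.852 CPM, for counting error only. In adult replicate 2 as many as 36373 genes had a count, where the other libraries had 17992 to 21840, and its untested protein-coding genes of the autosomes held 1.85 counts per kb, where those of the others held 0.186 to 0.349. CD4 T cell markers (Cd3d, Cd3e, Cd3g, Cd4, Trac and Lck) summed to 5774 to 6608 CPM in adult and 6051 to 6434 in infant libraries, and the naive markers Ccr7, Il7r, Lef1 and Tcf7 to 3557 to 4277 in adult and 3666 to 3757 in infant libraries. The 5 markers of B cells summed to 8.0 to 15.1 CPM in adult and 4.6 to 8.45 in infant libraries, those of CD8 T and NK cells to 50.2 to 58.9 and 39.2 to 50.5, and those of myeloid cells to 5.77 to 14.5 and 15 to 18.6, with Ncr1 at 0 in all 6 libraries and Klrd1, a receptor of NK cells, called higher in adult cells (edgeR adjusted p = 0.0255). Most of the CD8 T and NK sum was Cd8b1 (30.7 to 40.1 CPM over the libraries) and Klrd1, with Cd8a at or under 1.93 CPM. The 6 erythroid markers summed to 3.64 to 4.83 CPM in adult and 3.38 to 8.71 in infant libraries, nearly all of it Alas2, with Hba-a1 at 0 in all 6. Platelet markers stayed at or under 3.41 CPM in adult and 1.26 CPM in infant libraries. The stroma and endothelium list reached 316 to 395 CPM in adult and 376 to 391 in infant libraries, nearly all of it Pecam1, which T cells also express. The 5 markers of cycling cells (Mki67, Top2a, Ccna2, Ccnb1 and Cdk1) summed to 9.45 to 28.1 CPM in adult and 64.5 to 138 in infant libraries, with no overlap. Of these, Mki67, Top2a and Ccna2 were called lower in adult cells. Cdk1 overlapped between ages and did not pass (edgeR adjusted p = 0.491), and Ccnb1, too low to test, overlapped as well. Xist was at 362 to 480 CPM in adult and 576 to 669 CPM in infant libraries and was called lower in adult cells (edgeR adjusted p = 0.0271). The Y-linked genes Ddx3y, Eif2s3y and Uty had no count in any library, and Y-linked Kdm5d had 1 count in each of infant replicates 2 and 3. In bulk samples, fewer cells of a type and less RNA per cell cannot be told apart.

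**Figure D1:**
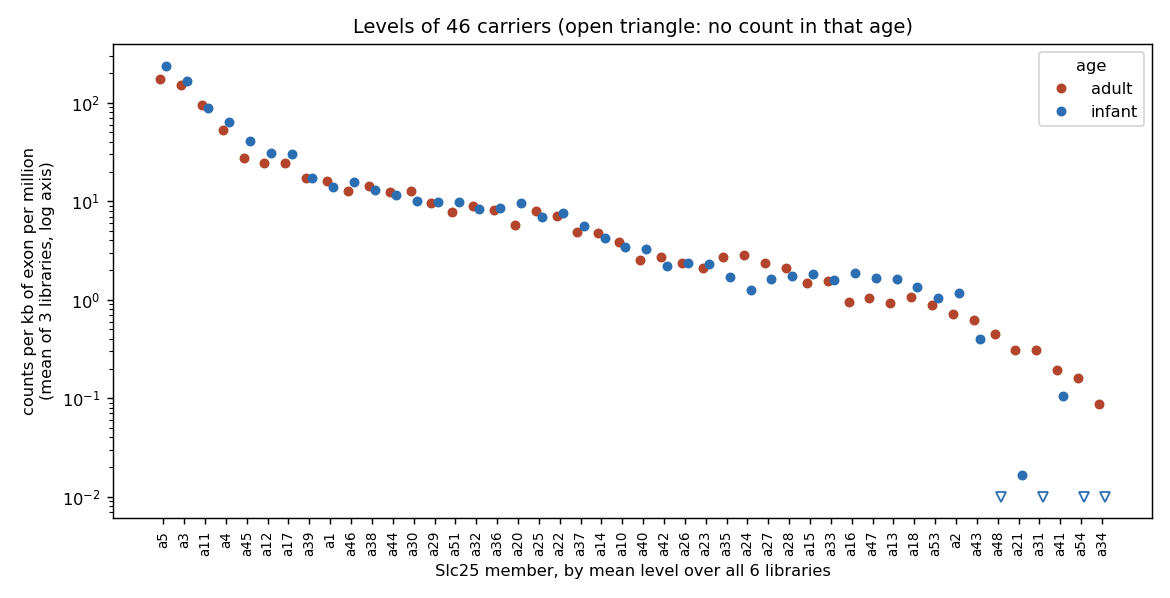
Mean level of 46 Slc25a genes in CPM per kb of all annotated exons (log axis), adult in red and infant in blue, ordered by the mean over all 6 libraries. Slc25a5 and Slc25a3 lead at 206 and 160 and the 8 members too low to test lie at 0.0436 to 0.943.

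Compared per length, levels in the family ran from 206 for Slc25a5 to 0.0436 for Slc25a34, as means over all 6 libraries in CPM per kb of exon. Slc25a5 was at 173 in adult and 239 in infant libraries, followed by the phosphate carrier gene Slc25a3 (153 in adult and 166 in infant), the oxoglutarate/malate carrier gene Slc25a11 (95.4 and 87.9) and the second ADP/ATP carrier gene Slc25a4 (53.4 and 63.2). Slc25a45 came next (27.2 in adult and 40.7 in infant libraries), ahead of the aspartate/glutamate carrier gene Slc25a12 (24.6 and 31.1) and the peroxisomal carrier gene Slc25a17 (24.2 and 30.3). In adult cells the levels of Slc25a12 and Slc25a17 differed by less than the spread of either between libraries. The length used was that of all annotated exons, 5550 bases for Slc25a3 and 1646 for Slc25a5. Their coding transcripts hold 1959 and 1216 different stretches of 25 bases (25-mers), so that Slc25a3 is shortened more by a length of coding transcripts. The order of Slc25a5 and Slc25a3 may therefore depend on the length used, and other lengths were not tested. In unscaled counts, the 5 members with most counts (Slc25a3, Slc25a5, Slc25a12, Slc25a11 and Slc25a4) held 59.3% to 64.9% of the family's counts in adult and 62.8% to 65.2% in infant libraries.

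The family as a whole took a smaller share of the RNA counts in adult cells. Its share was 0.252%, 0.268% and 0.261% in the adult libraries and 0.297%, 0.294% and 0.290% in the infant libraries, so that the ages did not overlap. Means were 0.260% ± 0.00771 in adult and 0.294% ± 0.00345 in infant libraries (SD, n = 3 each), and this sum over chosen members was not tested. The sum of the cycling-cell markers given above moved with this share, without overlap between ages, and the part of these markers in it was not tested. Of the difference, Slc25a5 made up 33.5%, Slc25a3 25.3%, Slc25a12 15.1% and Slc25a45 11.4%. In the opposite direction, Slc25a11 differed by 13.0 CPM of the unscaled library total, higher in adult libraries.

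**Figure D2:**
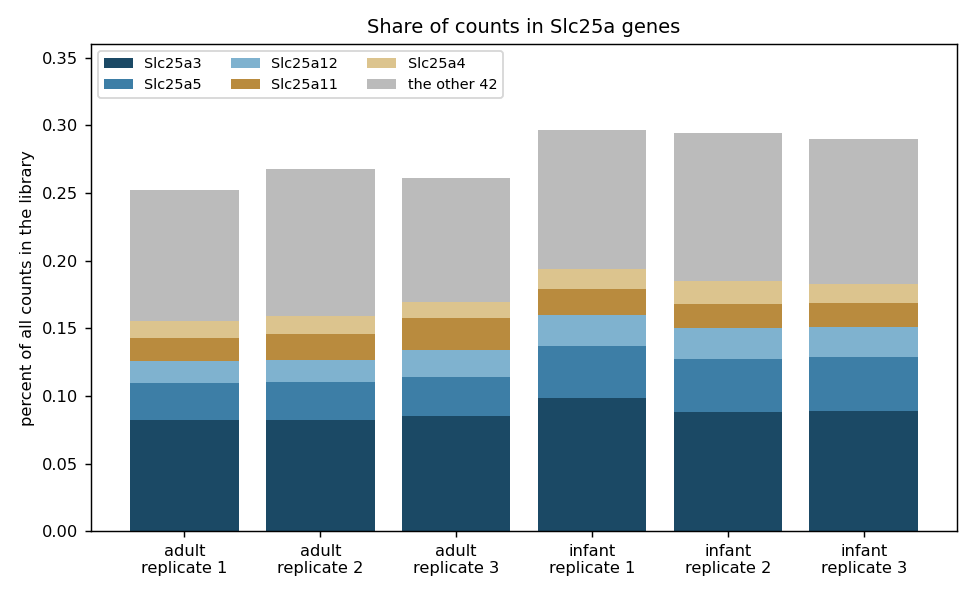
Percent of all counts of each library that fall on Slc25a genes, stacked by the 5 members with most counts and the other 42. The 3 adult bars reach 0.252% to 0.268% and the 3 infant bars 0.290% to 0.297%, with the widest step in Slc25a5 (second from the bottom).

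Over single genes the shift was small. The median log2 fold change, adult over infant, was -0.08 over the 39 tested members and 0.0017 over all genes tested, and 23 of the 39 members had a negative value, against 49.7% of all genes. The members' median rested on single libraries, at -0.19 without infant replicate 1, -0.16 without adult replicate 2 and 0.015 without adult replicate 3. In 7 tested members all adult values lay below all infant values and in 4 they lay above, where 11.2% and 11.6% of all genes tested did so. The 95% interval of the log2 fold change lay within a 2-fold change either way for 26 of the 39 tested members.

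**Figure D3:**
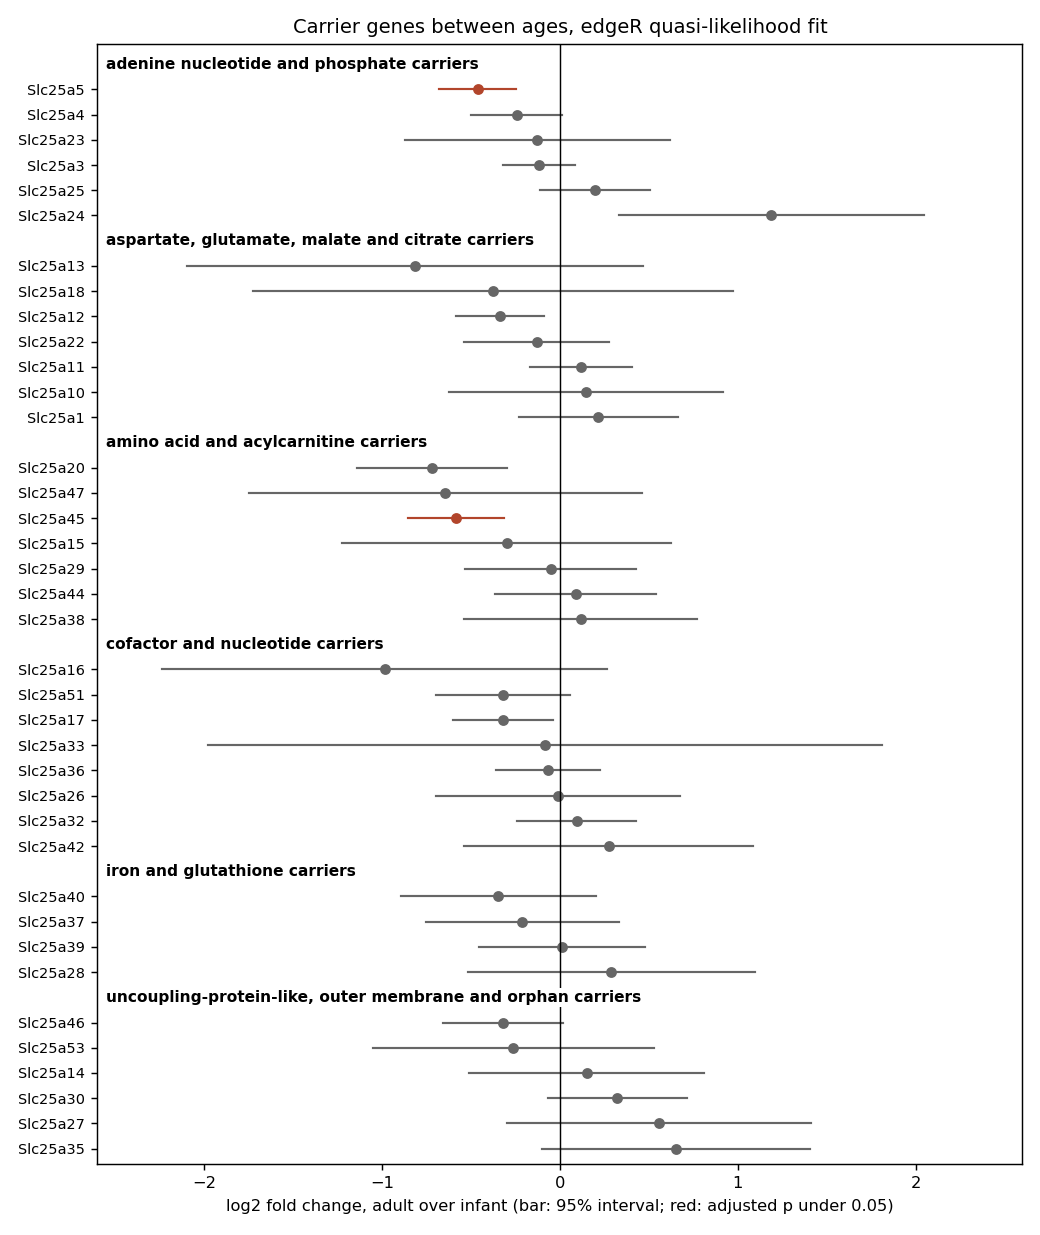
Log2 fold change (adult over infant) with its 95% interval for 38 tested Slc25a genes, grouped by what they carry, with Slc25a5 and Slc25a45 in red as the 2 genes past an adjusted p of 0.05. Most intervals cross 0, and those of low members such as Slc25a33 (-1.98 to 1.81) are wide.

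Among the carriers of adenine nucleotides and phosphate, 1 of 6 tested members was lower in adult cells, 0 were higher and 5 did not pass (median log2 fold change -0.12, with 0.04 without infant replicate 2, -0.21 without infant replicate 3 and 0.0013 with no filter on low counts). Slc25a5 encodes ANT2, the ADP/ATP exchanger of growing cells, which imports ADP into the matrix and exports ATP. It lies on chromosome X from 36795651 to 36798807 (mm10, ENSMUSG00000016319.3). It had 286, 268 and 302 CPM in adult mice, against 379, 394 and 408 CPM in infant mice. The highest adult value lay below the lowest infant value, with a log2 fold change of -0.46 ± 0.10 (SE, edgeR adjusted p = 0.0196). Leaving out adult replicate 1, adult replicate 3 or any infant replicate ended the call (edgeR adjusted p 0.0531 to 0.127) and so did testing with no filter on low counts (0.0829), whereas it held without adult replicate 2 (0.0235). Over all 15 alternatives the log2 fold change ran from -0.50 to -0.42 and the adjusted p from 5.02e-04 to 0.127. The sum of the cycling-cell markers given above moved with Slc25a5, and the part of these markers in this difference was not tested.

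Counting of Slc25a5 is complicated by processed copies of its messenger RNA elsewhere in the genome. Of the 1216 different 25-mers in its coding transcripts, 72.8% also occur in transcripts of other genes, whereas none of those of its paralog Slc25a4 do. The start of the coding sequence is printed for Slc25a5, for the 2 copies that share most of its 25-mers and for Slc25a4, to show where stretches of 25 bases, the length of the reads, are the same in Slc25a5 and a copy. Of the 51 such stretches in the part printed, 6 are the same in Gm5560, 21 in Gm5529 and 0 in Slc25a4. Capitals mark bases that differ from Slc25a5, and the sequences are from GENCODE transcripts on GRCm38, read 5′ to 3′ on the transcribed strand. Gm5560 (chromosome 5, 97264828 to 97265719) differs at 2 of 75 bases, Gm5529 (chromosome 1, 79922536 to 79923426) at 3 and Slc25a4 (chromosome 8, 46206797 to 46211284) at 21.
Slc25a5: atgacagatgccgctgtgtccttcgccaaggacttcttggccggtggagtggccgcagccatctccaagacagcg
Gm5560: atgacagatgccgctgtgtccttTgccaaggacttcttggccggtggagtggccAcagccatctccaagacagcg
Gm5529: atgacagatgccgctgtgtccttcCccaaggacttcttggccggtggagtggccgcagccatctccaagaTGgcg
Slc25a4: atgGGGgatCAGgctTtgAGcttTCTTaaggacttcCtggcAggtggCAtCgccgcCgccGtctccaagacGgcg

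The 8 processed copies that share at least 100 of these 25-mers held few counts, 8, 32 and 18 in all in adult mice, against 8, 9 and 10 in infant mice. When they were added to Slc25a5 the log2 fold change was -0.45 (edgeR adjusted p = 0.0229). The sources used here do not say how reads that match several places were counted, so that the level of Slc25a5 is less certain than its counts alone would make it.

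Slc25a4, which encodes ANT1, the ADP/ATP carrier of muscle and resting tissues, had 130, 126 and 122 CPM in adult mice, against 142, 166 and 138 CPM in infant mice. All adult values lay below all infant values, but the difference did not pass (log2 fold change -0.24 ± 0.12, SE, 95% interval -0.50 to 0.01, edgeR adjusted p = 0.328). The phosphate carrier gene Slc25a3, whose product brings in the phosphate for ATP synthesis, had 855, 801 and 892 CPM in adult mice, against 977, 874 and 913 CPM in infant mice. Its groups overlapped, and its log2 fold change of -0.12 had an interval of -0.32 to 0.08.

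Slc25a23, Slc25a24, Slc25a25 and Slc25a41 encode carriers that exchange ATP-Mg for phosphate and so set the size of the adenine nucleotide pool of the matrix. Slc25a24 had 10.4, 12.2 and 6.84 CPM in adult mice, against 4.61, 3.87 and 4.35 CPM in infant mice. It was the tested member with the highest positive log2 fold change, 1.19 ± 0.40 (SE), with groups that did not overlap, but it did not pass (edgeR adjusted p = 0.130). Slc25a25 had 60.4, 60.2 and 67.3 CPM in adult mice, against 53.2, 57.6 and 53.4 CPM in infant mice, again without overlap (log2 fold change 0.20, 95% interval -0.11 to 0.50). Slc25a23 averaged 11.2 ± 0.838 CPM in adult and 12.3 ± 5.84 CPM in infant libraries (SD, n = 3 each). The testis carrier gene Slc25a31 (ANT4) and Slc25a41 were too low to test.

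**Figure D4:**
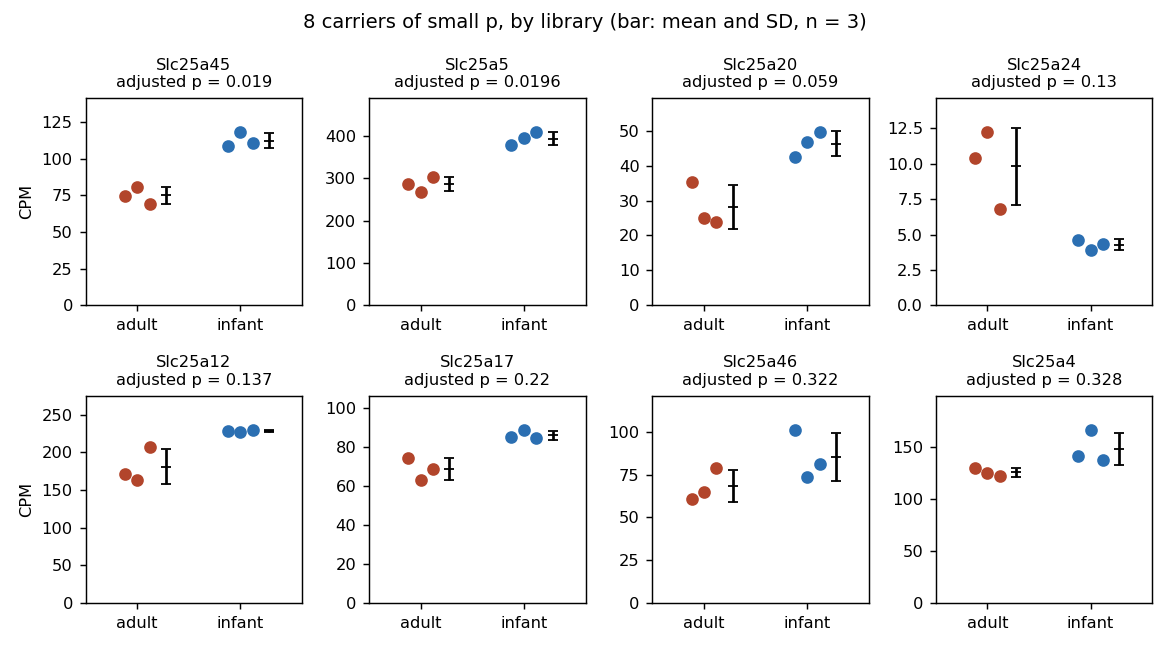
CPM in every library for 8 tested Slc25a genes of small p, adult left in red and infant right in blue, each with the mean and SD of 3 libraries beside the points. In Slc25a45 and Slc25a5 all 3 adult points lie below all 3 infant points, and in Slc25a24 they lie above.

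Carriers of amino acids and acylcarnitines had 1 of 7 tested members lower in adult cells, 0 higher and 6 not passing (median -0.30). The median was -0.02 without adult replicate 3, -0.20 without infant replicate 2, -0.52 without adult replicate 2 and -0.61 without infant replicate 1. Slc25a45 (chromosome 19, 5877808 to 5885878, mm10, ENSMUSG00000024818.15) encodes a carrier linked in recent work to the uptake of methylated basic amino acids, among them the trimethyllysine from which carnitine is made. It had 74.9, 81.0 and 69.4 CPM in adult mice, against 109, 118 and 111 CPM in infant mice. The groups stood well apart, 1.5-fold higher in infant cells (log2 fold change -0.58 ± 0.13, SE, edgeR adjusted p = 0.0190). None of its 25-mers occurs in another gene's transcripts. The sum of the markers of cycling cells moved with this gene as well, and the part of these markers was not tested. Leaving out adult replicate 1, adult replicate 3 or any infant replicate ended the call here too (edgeR adjusted p 0.0629 to 0.127), and it held without adult replicate 2 (0.0159) and in the other 8 alternatives. Over all 14 alternatives the log2 fold change ran from -0.64 to -0.53 and the adjusted p from 0.00284 to 0.127.

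Slc25a20, which encodes the carnitine/acylcarnitine carrier that brings fatty acids into the matrix for oxidation, fell just short of the threshold. It had 35.4, 25 and 23.9 CPM in adult mice, against 42.5, 46.9 and 49.5 CPM in infant mice. All adult values were below all infant values, and the log2 fold change was -0.72 ± 0.20 (SE, 95% interval -1.14 to -0.30, edgeR adjusted p = 0.0590). It passed with DESeq2 (adjusted p = 0.0322), with no filter on low counts (0.0174) and without adult replicate 1 (0.0448), and over 14 alternatives the adjusted p ran from 0.0174 to 0.210.

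**Figure D5:**
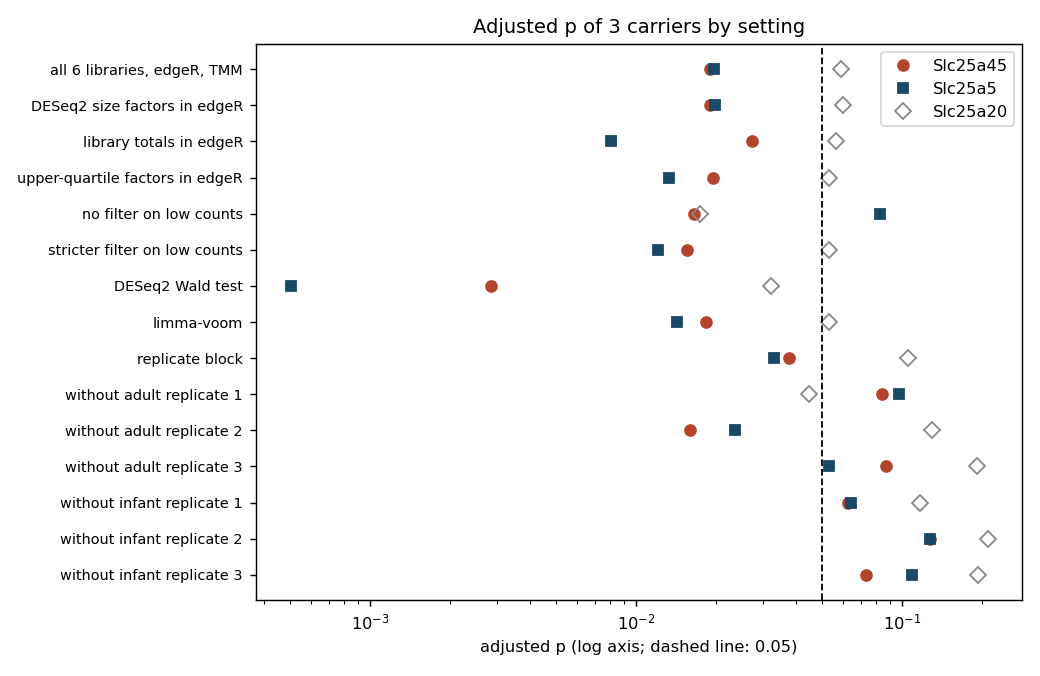
Adjusted p of Slc25a45, Slc25a5 and Slc25a20 (log axis, dashed line at 0.05) with all 6 libraries and under each alternative setting. Slc25a45 and Slc25a5 lie left of the line with all libraries (0.0190 and 0.0196) and right of it when any library but adult replicate 2 is left out, and Slc25a20 lies at 0.0590 with all libraries.

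The other tested members of this group overlapped between ages. Slc25a38, which supplies glycine for haem synthesis, averaged 39.0 ± 13.2 CPM in adult and 35.9 ± 15.5 CPM in infant libraries, Slc25a44, a carrier of branched-chain amino acids, 44.4 ± 9.45 and 41.7 ± 9.66, and Slc25a29, a carrier of basic amino acids, 24.8 ± 4.77 and 25.6 ± 3.78 (SD, n = 3 each). The ornithine carrier gene Slc25a15 averaged 8.34 ± 3.24 CPM in adult and 10.2 ± 4.65 CPM in infant libraries (SD, n = 3 each). Slc25a47, counted in this group although no amino acid substrate is claimed for it here, averaged 3.14 ± 1.57 and 4.97 ± 0.539 (SD, n = 3 each).

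The 7 tested carriers of aspartate, glutamate, malate and citrate had 0 members past the threshold in either direction by edgeR (median -0.13), with 1 lower and 0 higher at an unadjusted p under 0.05 and 0 past the threshold by DESeq2 or limma-voom. Their median ran from -0.24 without infant replicate 3 to -0.04 without infant replicate 1. Slc25a12 encodes the calcium-regulated aspartate/glutamate exchanger aralar, which with Slc25a11 drives the malate-aspartate shuttle that carries reducing equivalents into the matrix. Slc25a12 had 172, 163 and 207 CPM in adult mice, against 229, 227 and 229 CPM in infant mice. The infant libraries were nearly equal and all above the adult ones, with a log2 fold change of -0.34 ± 0.12 (SE, 95% interval -0.58 to -0.09, edgeR adjusted p = 0.137). Its shuttle partner Slc25a11 had 173, 186 and 248 CPM in adult mice, against 194, 178 and 187 CPM in infant mice. Adult replicate 3 alone stood above the infant values, and the log2 fold change of 0.12 ± 0.13 turned to -0.05 without that library.

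Slc25a13, which encodes citrin, the second aspartate/glutamate exchanger and best known from liver, was low. It had 4.85, 5.11 and 0.641 CPM in adult mice, against 6.07, 6.05 and 6.28 CPM in infant mice, so that the adult values all lay lower, 1 of them at 3 counts (log2 fold change -0.82, 95% interval -2.10 to 0.46). The citrate carrier gene Slc25a1, whose product exports the citrate used for fatty acid synthesis, averaged 35.1 ± 8.66 CPM in adult and 30.1 ± 1.82 CPM in infant libraries (SD, n = 3 each). The glutamate carrier genes Slc25a22 and Slc25a18 averaged 42.2 ± 7.65 and 2.02 ± 0.993 CPM in adult and 46.1 ± 7.00 and 2.58 ± 1.19 CPM in infant libraries. The dicarboxylate carrier gene Slc25a10 averaged 13.3 ± 5.79 CPM in adult and 12 ± 3.07 CPM in infant libraries (SD, n = 3 each), also with overlap.

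The 9 tested carriers of cofactors and nucleotides had 0 members past the threshold by edgeR (median -0.07), with 1 lower and 1 higher at an unadjusted p under 0.05 and 0 past the threshold by DESeq2 or limma-voom. The median was -0.27 without adult replicate 2, and it was positive without adult replicate 1 (0.04), adult replicate 3 (0.08) or infant replicate 3 (0.05). Slc25a17, whose product lies in the peroxisome and carries coenzyme A and related cofactors, had 74.4, 63.4 and 69.0 CPM in adult mice, against 85.0, 88.8 and 84.8 CPM in infant mice. The adult values were all lower (log2 fold change -0.32 ± 0.13, SE, edgeR adjusted p = 0.220).

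The NAD carrier gene Slc25a51 had 51.9, 36.9 and 40.2 CPM in adult mice, against 50.5, 50.8 and 60.1 CPM in infant mice, with adult replicate 1 inside the infant range (log2 fold change -0.32, 95% interval -0.70 to 0.06). Slc25a16, a gene linked to coenzyme A, had 0.970, 9.09 and 3.63 CPM in adult mice, against 10.7, 5.56 and 10.4 CPM in infant mice. Its log2 fold change of -0.99 was the most negative of the family, but its groups overlapped, its interval was -2.24 to 0.27, and leaving out 1 library gave values from -1.91 to -0.51. Adult replicate 2, which held counts at many otherwise silent genes, had its highest adult value. The pyrimidine nucleotide carrier gene Slc25a36 averaged 77.7 ± 9.64 CPM in adult and 81.2 ± 0.684 CPM in infant libraries, the folate and FAD carrier gene Slc25a32 54.1 ± 4.24 and 50.8 ± 5.05, and the S-adenosylmethionine carrier gene Slc25a26 11.4 ± 3.46 and 11.4 ± 1.83 (SD, n = 3 each). Slc25a36 and Slc25a32 had narrow 95% intervals of the log2 fold change, -0.36 to 0.23 and -0.24 to 0.43. The coenzyme A carrier gene Slc25a42 averaged 16.2 ± 9.37 CPM in adult and 13.2 ± 4.11 CPM in infant libraries, and Slc25a33, a second pyrimidine nucleotide carrier, had 0.485, 7.67 and 0.641 CPM in adult mice, against 0.838, 4.11 and 4.11 CPM in infant mice.

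All 4 iron and glutathione carriers were tested, and 0 passed in either direction by edgeR, with 0 at an unadjusted p under 0.05 and 0 by DESeq2 or limma-voom. Their median was -0.10, and it was 0.18 without infant replicate 3 and -0.31 without infant replicate 1. Slc25a39, which brings glutathione into the matrix, had 38.5, 58.5 and 46.8 CPM in adult mice, against 33.5, 51.0 and 58.2 CPM in infant mice. The groups covered the same range (log2 fold change 0.01 ± 0.22, SE, 95% interval -0.45 to 0.48). Its paralog Slc25a40 averaged 21.4 ± 6.07 CPM in adult and 27.4 ± 6.09 CPM in infant libraries, the mitoferrin gene Slc25a37, which imports iron in red cell precursors, 29.1 ± 2.49 and 33.7 ± 13.8, and the mitoferrin gene Slc25a28 of other tissues 7.94 ± 0.287 and 6.51 ± 1.61 (SD, n = 3 each). Infant replicate 3 alone held the high infant value of Slc25a37, 49.5 CPM.

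Of the 6 tested uncoupling-protein-like, outer membrane and orphan members 0 passed by edgeR, with 0 at an unadjusted p under 0.05 and 0 by DESeq2 or limma-voom (median 0.24, with 0.085 without adult replicate 3, 0.156 without infant replicate 3 and 0.53 with no filter on low counts). Slc25a46, which sits in the outer membrane and takes part in mitochondrial fission, had 60.9, 65.1 and 78.8 CPM in adult mice, against 101, 73.8 and 81.4 CPM in infant mice. The highest adult value lay within the infant range (log2 fold change -0.32 ± 0.16, SE, edgeR adjusted p = 0.322). Slc25a35, a member without a settled substrate, had 11.9, 9.38 and 8.55 CPM in adult mice, against 5.86, 6.29 and 6.76 CPM in infant mice. The adult values were all higher, without passing (log2 fold change 0.65, 95% interval -0.10 to 1.41), and 31.3% of its exon bases overlap Rangrf on the opposite strand, from which this protocol cannot tell its reads, although Rangrf itself had 2 counts over the 6 libraries. Slc25a30, a relative of the uncoupling proteins, had 65.9, 49.2 and 58.5 CPM in adult mice, against 57.0, 40.4 and 41.3 CPM in infant mice, with overlap. Slc25a27 and Slc25a14, 2 uncoupling protein relatives of the brain, averaged 9.38 ± 4.11 and 11.1 ± 1.81 CPM in adult and 6.40 ± 1.15 and 10.0 ± 1.34 CPM in infant libraries. Slc25a53 averaged 6.98 ± 1.09 CPM in adult and 8.37 ± 1.66 CPM in infant libraries (SD, n = 3 each).

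The 8 members with too few counts to be tested were Slc25a2, Slc25a21, Slc25a31, Slc25a34, Slc25a41, Slc25a43, Slc25a48 and Slc25a54. Slc25a31, Slc25a48 and Slc25a54 had 7, 16 and 3 counts in adult replicate 2 and 0 in each of the other 5 libraries, where 3 counts correspond to 0.628 to 0.727 CPM. Slc25a21 had 16 counts in adult replicate 2 and 1 in the other 5 together. These 4 amount to 1.69 to 4.74 counts per kb of exon in that library, beside its 1.85 over untested genes, so that expression of these members in adult cells rests on a single library with counts at many silent genes. Slc25a2, a second ornithine carrier, had 0, 8 and 3 counts in adult mice, against 0, 11 and 9 in infant mice, and Slc25a43 had 5, 6 and 2 in adult mice, against 1, 3 and 5 in infant mice. Slc25a34 and Slc25a41 had at most 2 counts in any library.

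The members are spread over the genome, with 4 on X (Slc25a5, Slc25a14, Slc25a43 and Slc25a53), of which the 3 tested had log2 fold changes of -0.46, 0.15 and -0.26. RefSeq windows on GRCm38.p6 from 250 bases before to 50 after the start of the RefSeq transcript were at hand for 30 of the 39 tested members. Their median GC content was 60.8%, against 52.7% over 27025 windows of all genes. Those 27025 windows include genes that were not tested here, and the members were not compared with windows of tested genes alone. The ETS family core CCGGAAG stood on either strand in 6 of the 30 (20%) and in 9.12% of all windows, the CCAAT box CCAAT in 15 (50%) and 37.9%, and the E-box CACGTG in 5 (16.7%) and 7.24%. The TATA box TATAAA stood in 1 (3.33%) and 14.2%, the YY1 core AAGATGG in 1 (3.33%) and 6.48%, and the NRF1 letters GCATGCGC in 0 and 2.80%. None of these motifs contains another. Those with the ETS core were Slc25a3, Slc25a4, Slc25a17, Slc25a20, Slc25a25 and Slc25a38, and the windows of the 2 called genes held none of the 6 motifs, which says only that these letters are not in these windows. The window of Slc25a5 ends before the GENCODE start of that gene at 36795651, so it does not reach the start given above. It holds the letters tatataag, which a search for the exact letters TATAAA does not count. Looser forms of the TATA box were not searched for, so the window was not shown to lack one. These 2 windows are shown because both genes were lower in adult cells, with the first base of the RefSeq transcript in capitals (Slc25a5 on the plus strand at chrX:36795347-36795646, Slc25a45 on the plus strand at chr19:5877572-5877871, GRCm38.p6).
Slc25a5: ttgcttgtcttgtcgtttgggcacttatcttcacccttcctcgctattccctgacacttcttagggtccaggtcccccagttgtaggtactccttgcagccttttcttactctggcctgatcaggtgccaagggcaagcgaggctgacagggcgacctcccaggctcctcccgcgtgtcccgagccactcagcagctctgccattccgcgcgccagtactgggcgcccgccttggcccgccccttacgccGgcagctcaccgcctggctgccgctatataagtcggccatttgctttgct
Slc25a45: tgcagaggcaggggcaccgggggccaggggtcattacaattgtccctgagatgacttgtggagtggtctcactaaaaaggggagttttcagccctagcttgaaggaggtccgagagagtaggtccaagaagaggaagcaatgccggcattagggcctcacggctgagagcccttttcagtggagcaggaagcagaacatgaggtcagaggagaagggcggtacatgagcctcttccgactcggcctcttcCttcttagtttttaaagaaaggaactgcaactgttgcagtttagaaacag

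Genes around the carriers were read from lists of their import machinery, other transporters and partner enzymes. Of 3 tested SLC25 proteins with other symbols 0 passed (median log2 fold change -0.23, adult over infant, and -0.053 with no filter on low counts). The most abundant, Ucp2, an uncoupling protein family member of lymphocytes, had 982, 1026 and 1022 CPM in adult mice, against 1059, 1244 and 1250 CPM in infant mice. In CPM, without regard to length, this was more than any Slc25a gene in the same library. Per kb of all annotated exons its mean over all 6 libraries was 157, beside 206 for Slc25a5 and 160 for Slc25a3. This order, too, may depend on the length used. The adult CPM values of Ucp2 were all lower (log2 fold change -0.23 ± 0.10, SE, edgeR adjusted p = 0.234), and it alone of the list was under an unadjusted p of 0.05. Mtch2, an outer membrane insertase, averaged 136 ± 8.15 CPM in adult and 137 ± 8.17 CPM in infant libraries (SD, n = 3 each). The carrier import machinery, which passes carrier proteins through the outer membrane and inserts them into the inner one, had 0 of 10 members past the threshold (edgeR, median -0.0071, and 0.19 without infant replicate 3), with 0 at an unadjusted p under 0.05. Its 2 most abundant members, Timm13 and Agk, had log2 fold changes of 0.25 ± 0.16 and 0.01 ± 0.15 (SE). The outer membrane channel genes Vdac1, Vdac2 and Vdac3 had 0 of 3 past the threshold and 0 at an unadjusted p under 0.05 (edgeR, median -0.10, with -0.158 without adult replicate 1, and -0.059, -0.055 and -0.056 without adult replicate 3, infant replicate 2 and infant replicate 3), with Vdac2 and Vdac1 at log2 fold changes of -0.10 ± 0.11 and -0.19 ± 0.15 (SE).

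Inner membrane transporters of other families had 1 of 15 tested members lower in adult cells, 0 higher and 14 not passing (median -0.09). The median was -0.185 without adult replicate 2, -0.177 without infant replicate 1, -0.062 without infant replicate 3, -0.029 without adult replicate 1, -0.018 without adult replicate 3 and -0.178 with no filter on low counts. The member was Abcb8, a transporter linked to iron export from mitochondria, with 45.3, 46.9 and 33.8 CPM in adult mice, against 65.3, 66.5 and 73.4 CPM in infant mice. The groups did not overlap (log2 fold change -0.71 ± 0.17, SE, edgeR adjusted p = 0.0287), and the call held without adult replicate 2 but not without any other library (0.0754 to 0.132). The 2 most abundant members, Letm1 and Sfxn3, had log2 fold changes of 0.04 ± 0.17 and -0.03 ± 0.13 (SE). Among shuttle and partner enzymes 1 of 16 was lower in adult cells, 0 were higher and 15 did not pass (median -0.03, and 0.025 without infant replicate 3). That gene was Cpt1a, the outer membrane enzyme that makes the acylcarnitines Slc25a20 carries, with 62.1, 59.7 and 75 CPM in adult mice, against 116, 118 and 90.8 CPM in infant mice. All adult values were lower, with a log2 fold change of -0.72 ± 0.15 (SE, edgeR adjusted p = 0.0147). It was not called without adult replicate 1 (0.0896), infant replicate 1 (0.0833) or infant replicate 2 (0.12). The citrate cycle genes Mdh2 and Cs, the most abundant of the list, had log2 fold changes of -0.07 ± 0.10 and -0.11 ± 0.11 (SE).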

How the data were processed

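Polyadenylated RNA of 6 libraries of sorted CD4+ T cells was measured, 3 from adult and 3 from infant mice. Per the labels' protocols, RNA was copied from an oligo(dT) primer, amplified by PCR, fragmented with a transposase and sequenced in paired reads of 25 bases. The protocols name no strand marking and no molecular identifiers. Per the submitters' processing notes, the tools were STAR 2.5.4 and featureCounts and the genome build mm10. The sources used here name no annotation release and no rule for reads that match several places. Counts are as deposited, whole numbers for each symbol with no normalization.

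The filter filterByExpr of edgeR 4.0.16 (R 4.3.3) left 11681 genes at a minimum count of 10 and total of 15. They were scaled by TMM and tested by the quasi-likelihood F test, adjusted over all 11681 by Benjamini-Hochberg at 0.05. Log2 fold changes are adult over infant, and their SE is the size of the change over the root of F. Libraries of an age differed by more than counting noise in every pair (5.38 to 11.4 as chi-square over its degrees of freedom). Exon lengths, positions and 25-mers came from GENCODE vM21 on GRCm38, the build of mm10, which matched all 47 members. Alternatives were other scaling factors, no filter, a filter at 10 counts in each of at least 3 libraries with a mean of at least 20, DESeq2 1.42.0, limma-voom (limma 3.58.1), the replicate number as a block and leaving out each library. The sum of Slc25a5 with its copies, and the alternatives for Abcb8, Cpt1a and Acadl, were chosen after seeing the data. The fit was tested on simulated data. Results of 1 member and 1 marker gene are not reported here, though both stay in the fit and that member in the family's counts.

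The members, the lists and the rules were chosen with earlier results of these data known. Genes named are members past the threshold, the 12 next by p, the 10 of most counts, the leader of each role group and those too low to test, plus, in each further list, members past the threshold and the 2 of most counts; other members are given to account for all, and other genes singled out beside them were chosen after their values were seen.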

Additional observations from a re-analysis of the deposited data

How the results depend on the processing

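The count of called genes, 425, was 428, 445 and 459 with DESeq2 size factors, library totals and upper-quartile factors, 550 with no filter, 482 with a stricter filter, 622 with DESeq2, 426 with limma-voom and 326 with the replicate block, and 139 to 488 when 1 library was left out. The count of Slc25a members called, 2, was 2 or 3 in those 8 settings and 0 to 2 when 1 library was left out, with 1 (Slc25a20) without adult replicate 1. Same-numbered libraries did not deviate together (correlations of deviations from the group means -0.0919 to -0.0108). No pairing by number was seen in these values, which cannot show that same-numbered libraries had nothing in common. The replicate block kept the calls of Slc25a45 and Slc25a5 and added none among the members, and Abcb8 was not called under it (edgeR adjusted p = 0.0652). With no filter, 39470 genes were tested, the median of all genes moved to 0.84, Slc25a5 was lost and Slc25a20 gained. The members' median log2 fold change, -0.08, was -0.086 to -0.058 in the 8 settings and -0.19 to 0.015 when 1 library was left out. The share of counts, -0.0332 percentage points as adult minus infant, was -0.0341 against a total without ribosomal protein, mitochondrially encoded and haemoglobin genes and the most abundant gene, and -0.0368 to -0.0292 when 1 library was left out. Among named members, signs turned in 3: Slc25a39 was at -0.038 with no filter, and -0.20 (without infant replicate 1) to 0.18 when 1 library was left out, with -0.15 without adult replicate 2. Slc25a11 was at -0.052 (without adult replicate 3) to 0.22 and Slc25a36 at -0.16 to 0.023 (without adult replicate 3). The cause of these changes was not tested. At this depth members that averaged 1.61 CPM or less in both ages could not be compared, and counts without molecular identifiers include PCR copies.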

Other observations

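Genes of carnitine synthesis, carnitine uptake and fatty acid oxidation were looked up after the values of Slc25a45, Slc25a20 and Cpt1a had been seen, and 1 of the 10 that could be tested was called, higher in adult cells. Looked up were 13 genes, of which Bbox1, Cpt1b and Cpt1c were too low to test and Crat, Crot, Aldh9a1 and Hadhb are among the 9 that did not pass. Acadl, the long-chain acyl-CoA dehydrogenase, had 91.4, 101 and 99.1 CPM in adult mice, against 49.6, 43.8 and 48.5 CPM in infant mice (log2 fold change 1.04 ± 0.14, SE, edgeR adjusted p = 7.05e-04), higher in adult cells where Cpt1a was lower, and was called in all 14 alternatives (adjusted p up to 0.0137). Acadm, the medium-chain enzyme, had a log2 fold change of 0.37 ± 0.15 and did not pass (adjusted p = 0.213). Acadvl, the very-long-chain enzyme, and Hadha, a subunit of the trifunctional protein, had -0.33 ± 0.13 and -0.29 ± 0.13 and did not pass either (adjusted p = 0.192 and 0.247, edgeR). Tmlhe, the enzyme that acts on trimethyllysine, had 14.5, 13.1 and 8.97 CPM in adult mice, against 13.2, 20.6 and 11.6 CPM in infant mice, with overlap. Bbox1, which completes carnitine synthesis and is known mainly from liver and kidney, had 0, 1.70 and 0 CPM in adult mice, against 0, 0.242 and 0.242 CPM in infant mice. The adult value came from adult replicate 2 alone, which held counts at many otherwise silent genes. Slc22a5, the plasma membrane carnitine transporter, had a log2 fold change of 0.33 ± 0.25.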
